A study of Mus musculus with 11 samples.

Results

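The genes described here are 10 imprinted genes, H19, Igf2, Cdkn1c, Dlk1, Meg3, Rian, Mirg, Peg3, Snrpn and Plagl1, picked by name out of 45867 genes in the deposited tables. They were picked because earlier results of the same libraries had H19 higher and Meg3 and Rian lower in tumour than in brain, so their tumour and brain values are given as a description without a test. All 10 passed the filter of at least 1 FPKM in at least 2 libraries, and only the comparisons of genotype, which did not enter the choice, were tested on them.

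Messenger RNA was captured on ribosomes from adult C57BL/6 mice that carried an eGFP-L10a fusion, a tagged ribosomal protein, driven by the promoter of VE-cadherin (Cdh5), a gene of endothelial cells. This capture (TRAP, translating ribosome affinity purification) was applied to GL261 tumours, which are grafts of a mouse glioma line placed in the brain, and to healthy brain, in Eltd1-/- mice (KO) and wild type mice (WT). Eltd1, listed as Adgrl4 in the files, encodes an adhesion receptor of endothelial cells. The libraries fell into 4 groups, 2 KO tumours, 3 WT tumours, 3 KO brains and 3 WT brains. All 4 groups share the tagged ribosome as the labels describe it. The labels name mouse samples but do not say whether a sample pooled animals, so p-values measure the spread between these libraries.

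Imprinted genes are expressed mainly from the allele of 1 parent, under control of DNA methylation set in the germ line. Several encode growth factors, growth inhibitors or long noncoding RNAs, and many are active in the embryo and in neurons. Plagl1, Igf2, H19, Cdkn1c and Dlk1 are counted in mouse among a network of imprinted genes that act on embryonic growth.

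The targeted gene lay lower in every KO library than in every WT library of the same tissue. Adgrl4 had 11.5 and 5.82 FPKM in KO tumours against 45.0, 192 and 27.4 FPKM in WT tumours, and 21.6 to 23.6 FPKM in KO brains against 82.7 to 166 FPKM in WT brains. Values are FPKM, which scale fragments to transcript length and library size, and summed to 477911 to 641665 per library, while sequencing depth could not be recovered. WT tumour 2 listed 42.7% of the tested genes at 0, the most of any library, so a 0 there may be a failed estimate. Tumour libraries also differed in cell markers. The 12 microglia and macrophage markers summed to 313 to 335 FPKM in KO tumours, 137 to 251 FPKM in WT tumours and 39.25 to 64.6 FPKM in brains. The 12 neuron markers had a median of 8.95% and 27.2% of the KO brain mean in KO tumours 1 and 2, and of 2.56%, 3.93% and 52.2% of the WT brain mean in WT tumours 1, 2 and 3. The 12 endothelial markers, which include Cdh5 and Pecam1, were above 0 in all 11 libraries. Their sum was 550 to 665 FPKM in KO tumours, 297 to 865 FPKM in WT tumours, 1386 to 1949 FPKM in KO brains and 1280 to 1475 FPKM in WT brains. The sum of the 12 neuron markers was 746 and 1524 FPKM in KO tumours, 110 to 3118 FPKM in WT tumours, 5053 to 6258 FPKM in KO brains and 5685 to 6712 FPKM in WT brains, so neuronal transcripts were present in every library. The 8 neural progenitor and glioma markers summed to 138.9 to 309.5 FPKM in tumours and 166.5 to 372.9 FPKM in brains. On that list Olig2 averaged 65.9 FPKM in KO tumours, 81.7 FPKM in WT tumours, 4.33 FPKM in KO brains and 5.52 FPKM in WT brains. Prom1 went the other way in WT, at 51.7 FPKM in tumours and 202 FPKM in brains. The graft cells did not come from the tagged mice, and the part of their RNA in tumour values was not tested. In RNA from mixed cells, fewer cells of a type and less RNA per cell cannot be told apart.

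H19 was the most abundant member in both tumour groups and the least abundant in both brain groups. H19 is a long noncoding RNA that is expressed from the maternal allele and restrains growth in the mouse embryo (chr7:142575530-142578146 in GRCm38). It had 242 and 128 FPKM in KO tumours and 207, 308 and 242 FPKM in WT tumours. It had 0.116, 5.55 and 0.194 FPKM in KO brains and 0, 0.261 and 0.437 FPKM in WT brains. Every tumour library lay above every brain library, by at least the gap between 128 and 5.55 FPKM. On the log2(FPKM + 1) scale, used for all differences here, tumour minus brain was 6.43 in KO (SE 0.74) and 7.68 in WT (SE 0.66), and the added 1 understates the change of a gene so low in brain. KO brain 2 was the highest brain library, and without it the KO difference was 7.26. The sum of the 10 proliferation markers was also highest among brains in KO brain 2, at 39.2 FPKM against 1.43 to 10.2 FPKM in the other brain libraries, and was 648 to 1231 FPKM in tumours. Their part in the H19 values was not tested.

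H19 is the precursor of miR-675, whose arms are shown because they are the small RNA products of the member with the highest tumour level. They lie on the minus strand at chr7:142577112-142577133 (5p) and chr7:142577078-142577099 (3p) in RefSeq on GRCm38.p6, with the seed, bases 2 to 8, in capitals.
mmu-miR-675-5p: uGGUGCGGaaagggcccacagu
mmu-miR-675-3p: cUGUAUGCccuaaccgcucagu
The tables carry a row for the hairpin gene Mir675, which was listed at 0 in all 11 libraries. The same held for all 22 of 25 listed miRNA genes with a row, including Mir483 in Igf2, Mir770 in Meg3, Mir341 and Mir370 in Rian, and Mir154 and Mir410 in Mirg. Rows at 0 in libraries made for long RNA do not bear on the level of the mature miRNAs.

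Igf2 and Cdkn1c, the other members of distal chromosome 7, did not follow H19. Igf2, the paternally expressed growth factor that lies beside H19 (chr7:142650768-142666816), had 0.343 and 4.32 FPKM in KO tumours and 12.4, 8.02 and 17.1 FPKM in WT tumours. It had 18.8, 18.7 and 13.7 FPKM in KO brains and 30.3, 2.72 and 11.2 FPKM in WT brains. WT tumours lay within the range of WT brains, and both KO tumours lay below all KO brains. Tumour minus brain was -2.74 in KO (SE 0.88) and 0.21 in WT (SE 0.78), and the WT value was -0.58 without WT brain 2 and -0.03 without WT tumour 3. Cdkn1c, which encodes an inhibitor of cyclin-dependent kinases and is expressed from the maternal allele (chr7:143458339-143461059), had 3.85 and 4.24 FPKM in KO tumours and 4.63, 11.1 and 9.60 FPKM in WT tumours. It had 13, 10.2 and 15.4 FPKM in KO brains and 39.9, 10.7 and 21.1 FPKM in WT brains. Only WT tumour 2, at 11.1 FPKM, reached into the range of the brain libraries.

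**Figure D1:**
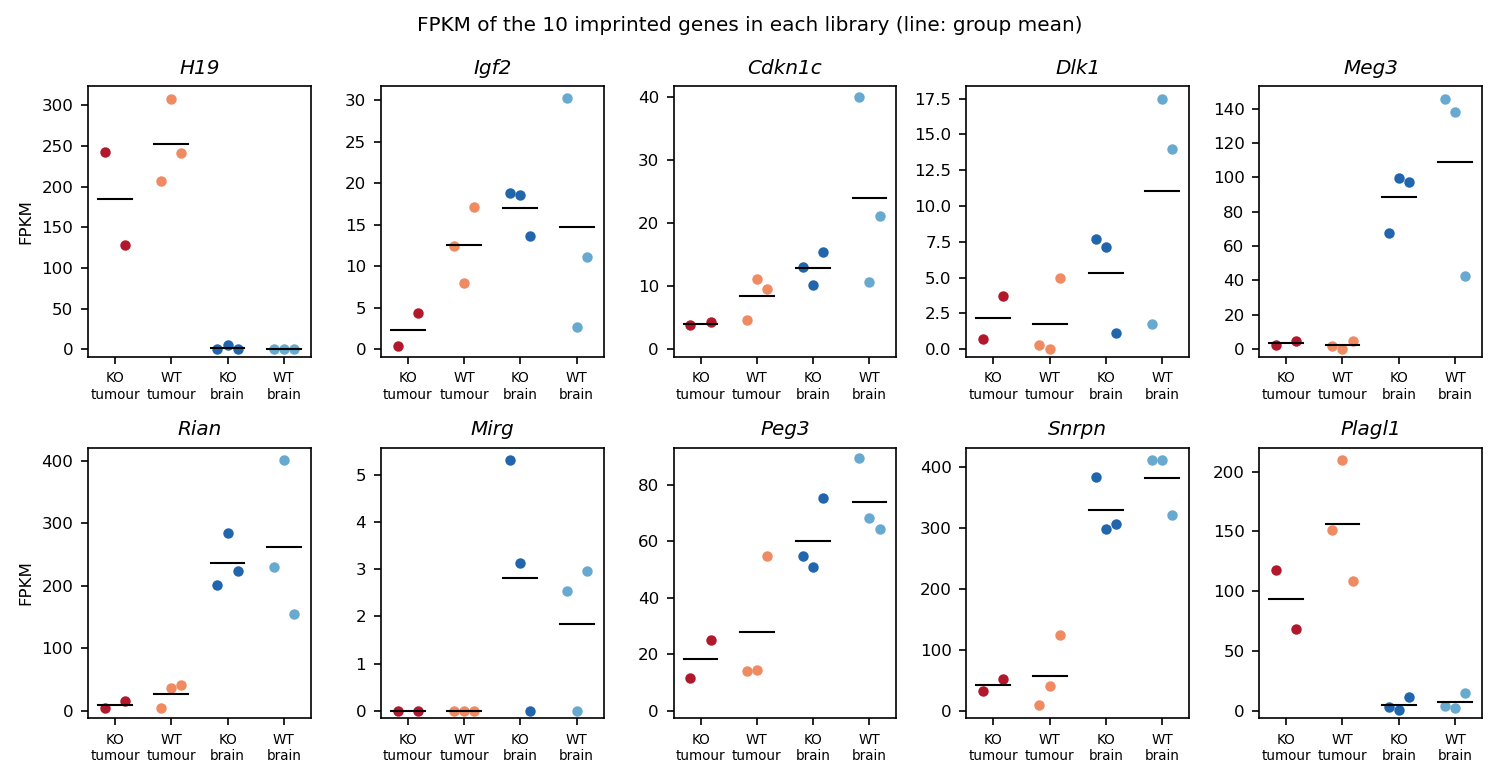
FPKM of each of the 10 imprinted genes (own vertical axis each) in KO tumours, WT tumours, KO brains and WT brains, with 1 point per library and a line at the group mean. H19 and Plagl1 sit above all brain libraries in all 5 tumours, while Meg3, Rian and Snrpn sit below all 6 brains.

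Of the noncoding RNAs of the Dlk1-Dio3 cluster on chromosome 12, Meg3 and Rian were abundant in brain and lower in every tumour, and Mirg was low in both tissues. The capture was aimed at messenger RNA on ribosomes, and how noncoding RNAs, H19 among them, came into these libraries was not tested. Meg3, Rian and Mirg are transcribed in the same direction from the maternal allele, and Meg3 acts as a growth-restraining long noncoding RNA in human tumour cells. Meg3 (chr12:109540996-109571729) had 2.30 and 4.68 FPKM in KO tumours and 2.12, 0.0592 and 4.92 FPKM in WT tumours. It had 67.9, 99.7 and 97.3 FPKM in KO brains and 146, 138 and 42.6 FPKM in WT brains. The highest tumour library was at 4.92 FPKM and the lowest brain library at 42.6 FPKM, so the tissues did not overlap. Tumour minus brain was -4.34 in KO (SE 0.75) and -5.16 in WT (SE 0.67).

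Rian, a host of small nucleolar RNAs and miRNAs downstream of Meg3 (chr12:109603945-109661716), had 4.11 and 15.3 FPKM in KO tumours and 3.86, 37.0 and 40.9 FPKM in WT tumours. It had 202, 283 and 224 FPKM in KO brains and 230, 401 and 154 FPKM in WT brains. The tissues did not overlap here either, and WT tumour 1 lay far below the other WT tumours. Tumour minus brain was -4.69 in KO (SE 0.84) and -3.62 in WT (SE 0.75). Mirg, the miRNA host at the distal end of the run (chr12:109734981-109749458), was listed at 0 in all 5 tumours, at 5.32, 3.14 and 0 FPKM in KO brains and at 2.54, 0 and 2.96 FPKM in WT brains. With 0 in 1 brain of each genotype, Mirg overlapped between the tissues. Rtl1, a paternally expressed retrotransposon-derived gene, spans chr12:109564900-109604418 and so overlaps the 3′ part of Meg3 and the start of Rian. No source used here states whether counting used the strand, so reads there could be shared. Rtl1 had 0.300 to 2.07 FPKM in tumours and 0.684 to 1.80 FPKM in brains, well below both neighbours in brain.

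Dlk1, the paternally expressed gene of the cluster, encodes a membrane protein related to Notch ligands (chr12:109452485-109463336). It had 0.703 and 3.71 FPKM in KO tumours and 0.286, 0 and 4.95 FPKM in WT tumours. It had 7.67, 7.17 and 1.12 FPKM in KO brains and 1.77, 17.5 and 14.0 FPKM in WT brains. Dlk1 overlapped between tumour and brain in both genotypes, unlike Meg3 and Rian.

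Sequences of 300 bases around the annotated starts (250 before, 50 after) were matched for 8 of the 10 members in RefSeq on GRCm38.p6. Those of Meg3, Rian and Mirg are shown to set side by side the starts of the 3 noncoding RNAs of the Dlk1-Dio3 cluster. All are on the plus strand, at chr12:109540746-109541045, chr12:109603695-109603994 and chr12:109734731-109735030. Capitals mark matches on either strand to 5 motifs. The cAMP response element was searched as TGACGTCA. A form of the PLAGL1 motif was searched as GGGGCCCC. The GC box was searched as GGGCGG, the CCAAT box under its own letters and the TATA box as TATAAA.
Meg3: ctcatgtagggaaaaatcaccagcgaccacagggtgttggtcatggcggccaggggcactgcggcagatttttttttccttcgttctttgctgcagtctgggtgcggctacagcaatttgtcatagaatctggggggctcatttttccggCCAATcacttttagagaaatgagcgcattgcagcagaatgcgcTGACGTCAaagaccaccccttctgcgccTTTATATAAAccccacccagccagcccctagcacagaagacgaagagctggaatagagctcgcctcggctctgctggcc
Rian: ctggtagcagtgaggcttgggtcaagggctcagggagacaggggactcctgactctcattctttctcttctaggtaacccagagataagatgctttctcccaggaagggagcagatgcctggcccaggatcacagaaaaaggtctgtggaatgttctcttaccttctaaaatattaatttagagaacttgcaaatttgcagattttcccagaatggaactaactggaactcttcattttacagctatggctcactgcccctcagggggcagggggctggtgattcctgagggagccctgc
Mirg: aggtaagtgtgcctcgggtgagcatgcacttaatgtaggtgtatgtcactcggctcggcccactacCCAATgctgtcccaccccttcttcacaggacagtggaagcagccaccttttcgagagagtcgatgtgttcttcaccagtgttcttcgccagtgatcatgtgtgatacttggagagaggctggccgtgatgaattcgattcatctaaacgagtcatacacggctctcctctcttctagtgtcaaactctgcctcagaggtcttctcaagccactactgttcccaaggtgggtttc
The Meg3 window shown held 1 cAMP response element, 1 CCAAT box and 2 TATA box matches that overlap on opposite strands, with 13 CpG dinucleotides. A second annotated start of Meg3 (plus strand, window at chr12:109545148-109545447, not shown) had none of these motifs and 1 CpG. The Rian window held none of these motifs and 0 CpG, and the Mirg window held 1 CCAAT box and 10 CpG, against a median of 7 CpG over all 32851 promoter windows. The cAMP response element was present in 1.79% of all windows, the PLAGL1 motif in 1.08%, the GC box in 35.7%, the CCAAT box in 37.4% and the TATA box in 13.6%. Each match is a match of letters and was not tested as a binding site.

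Plagl1 was the other member above all brain libraries in every tumour. It encodes a zinc finger transcription factor expressed from the paternal allele (chr10:13090832-13131694). It had 118 and 68.7 FPKM in KO tumours and 151, 210 and 109 FPKM in WT tumours. It had 3.26, 0.673 and 11.2 FPKM in KO brains and 3.90, 2.04 and 15.0 FPKM in WT brains. The lowest tumour, at 68.7 FPKM, was more than 4 times the highest brain, and tumour minus brain was 4.36 in KO (SE 0.84) and 4.62 in WT (SE 0.75).

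Peg3 and Snrpn, both paternally expressed, were lower in most or all tumours. Peg3, a zinc finger protein gene (chr7:6703892-6730462), had 11.7 and 25.1 FPKM in KO tumours and 14.2, 14.5 and 54.8 FPKM in WT tumours. It had 54.7, 50.9 and 75.4 FPKM in KO brains and 89.4, 68.1 and 64.5 FPKM in WT brains. WT tumour 3 alone reached the brain range. Snrpn, which encodes a protein of spliceosomal particles in neurons (chr7:59982495-60450177), had 31.6 and 51.4 FPKM in KO tumours and 9.24, 40.1 and 124 FPKM in WT tumours. It had 384, 299 and 306 FPKM in KO brains and 411, 411 and 322 FPKM in WT brains. Snrpn did not overlap between the tissues, although WT tumour 3 again had the highest tumour value. Snrpn shares its annotated 3′ end with Snurf (chr7:59982495-60005199), so the split between these rows is uncertain. Snurf had 120 and 6.02 FPKM in KO tumours, 4.10, 0 and 295 FPKM in WT tumours, 261 to 459 FPKM in KO brains and 190 to 630 FPKM in WT brains.

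The windows at the starts of Peg3 (minus strand, chr7:6730370-6730669) and Plagl1 (plus strand, chr10:13090582-13090881) are shown because they stand for a member lower in most tumours and a member higher in all tumours. Capitals mark the same motifs.
Peg3: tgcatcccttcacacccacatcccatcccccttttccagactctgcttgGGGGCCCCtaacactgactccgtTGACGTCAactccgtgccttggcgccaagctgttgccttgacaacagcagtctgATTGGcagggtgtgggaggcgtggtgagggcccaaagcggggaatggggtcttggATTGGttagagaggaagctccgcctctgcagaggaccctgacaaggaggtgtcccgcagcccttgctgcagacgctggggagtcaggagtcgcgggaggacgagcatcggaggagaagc
Plagl1: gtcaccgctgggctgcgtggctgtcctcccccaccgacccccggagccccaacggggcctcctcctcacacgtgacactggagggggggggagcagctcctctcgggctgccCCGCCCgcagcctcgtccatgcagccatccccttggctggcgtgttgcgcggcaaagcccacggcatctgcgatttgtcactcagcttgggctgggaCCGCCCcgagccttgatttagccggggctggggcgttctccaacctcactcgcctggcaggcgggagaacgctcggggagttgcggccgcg
The Peg3 window held 1 PLAGL1 motif, 1 cAMP response element and 2 CCAAT boxes, and the Plagl1 window held 2 GC boxes and 26 CpG. Of the members with a window, the cAMP response element was found in Meg3 and Peg3, and the PLAGL1 motif in Peg3. The gene body of Usp29 (chr7:6730559-6967220), a paternally expressed neighbour, begins inside the Peg3 window. Usp29 had 1.30 and 3.99 FPKM in KO tumours, 1.18, 0 and 8.23 FPKM in WT tumours, 11.5 to 13.6 FPKM in KO brains and 20.6 to 30.6 FPKM in WT brains.

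Across the 10 members, 2 lay above all brains in all 5 tumours, 3 lay below (Meg3, Rian and Snrpn) and 5 overlapped. Of all 15606 tested genes, 8.73% lay above and 12.3% below in the same way, and the choice of members fixes part of this count. The median difference of the members was -1.65 in KO and -1.47 in WT, against -0.18 and -0.26 over all tested genes. The choice of members fixes part of their median too. In order of mean level, KO tumours ran H19 (185 ± 80.8 FPKM, SD, n = 2), Plagl1 (93.1 ± 34.6) and Snrpn (41.5 ± 14.0), and the libraries of these neighbours did not overlap. In WT tumours the order was H19 (252 ± 51.5 FPKM, SD, n = 3), Plagl1 (156 ± 50.8) and Snrpn (57.7 ± 59.3), and each of these overlapped with the next. In brain the order was Snrpn (330 ± 47.1 FPKM in KO, 381 ± 51.8 in WT), Rian (236 ± 42.2 in KO, 262 ± 126 in WT) and Meg3 (88.3 ± 17.7 in KO, 109 ± 57.4 in WT), where Snrpn and Rian overlapped in WT brains only. Meg3 overlapped with Peg3, the next in order, in both brain groups.

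The members that were low in tumour did not track the neuron markers equally from library to library. In WT tumour 3, Snap25, a synaptic protein gene of neurons, was at 59.1% of the WT brain mean (2083 FPKM), and the median neuron marker was at 52.2%. There Peg3 was at 74.0% of the WT brain mean, Dlk1 at 44.7%, Snrpn at 32.5%, Rian at 15.6% and Meg3 at 4.53%. In KO tumour 2, where the median neuron marker was at 27.2% of the KO brain mean, Dlk1 was at 69.7%, Peg3 at 41.7%, Snrpn at 15.6%, Rian at 6.48% and Meg3 at 5.31%. In both libraries Peg3 was above the neuron median and Snrpn, Rian and Meg3 were below it. The place of Snrpn is that of its own row, and its split from Snurf is uncertain. Snurf had 295 FPKM in WT tumour 3, within its range of 190 to 630 FPKM in WT brains. In KO tumour 2 it had 6.02 FPKM, against 261 to 459 FPKM in KO brains. In WT tumour 1, with the neuron median at 2.56%, Dlk1 was at 2.58%, Snrpn at 2.42%, Meg3 at 1.95% and Rian at 1.48%, whereas Peg3 was at 19.2%. In WT tumour 2, with the neuron median at 3.93%, Peg3 was at 19.6%, Rian at 14.1% and Snrpn at 10.5%, whereas Meg3 was at 0.0544% and Dlk1 at 0. In KO tumour 1 the neuron median was 8.95%, with Peg3 at 19.4%, Dlk1 at 13.2%, Snrpn at 9.59%, Meg3 at 2.60% and Rian at 1.74%. Peg3 was above the neuron median in all 5 tumours and Meg3 below it in all 5. Single neuron markers spread around that median, so a place above or below it does not set a member apart from each marker. In WT tumour 3, 1 of the 12 markers was at 0 while Snap25 was at 59.1%. In WT tumour 1, Snap25 was at 1.54%, below Meg3. The part of neuronal RNA in the differences between tumour and brain was not tested.

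**Figure D2:**
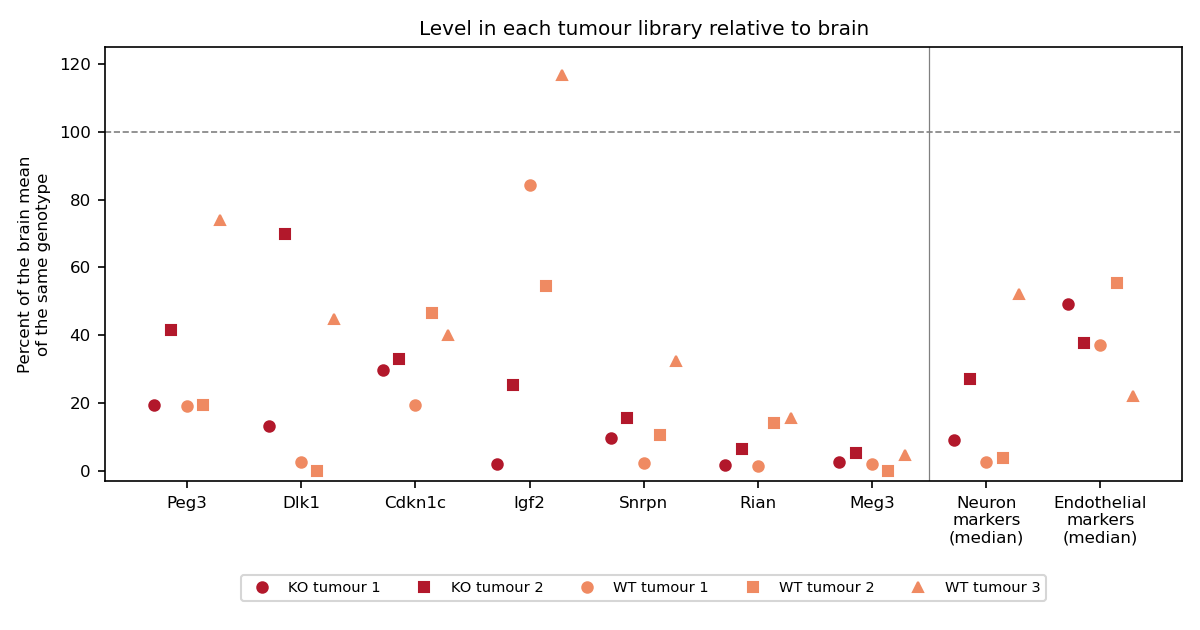
Level of 7 members and the median of the neuron and endothelial marker lists in each of the 5 tumour libraries, as percent of the brain mean of the same genotype (dashed line at 100), with KO tumours in dark red and WT tumours in orange. Meg3 stays at or below 5.31% in all 5 libraries, while Peg3 reaches 74.0% in WT tumour 3, where the neuron markers are at 52.2%.

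None of the 10 members passed in any comparison of KO with WT by limma at a Benjamini-Hochberg adjusted p of 0.05. Adgrl4, the targeted gene, did not pass by limma either. Its difference was -2.78 in tumour (SE 0.69, adjusted p = 0.9025) and -2.46 in brain (SE 0.62), so a member that did not pass may still differ. Over all 15606 genes, 0.0192% passed in tumour, 0.00641% in brain and 0.00641% for the difference between these genotype effects. At an unadjusted p under 0.05 the members numbered 1 of 10 in tumour (Igf2), 0 of 10 in brain and 1 of 10 for the difference of effects (Igf2 again), against 3.11%, 4.34% and 3.17% of all genes. Mirg, listed at 0 in every tumour, is among the 10 but could not be called in tumour by any count. Counts of non-overlapping groups gave 2 members lower (Igf2 and Cdkn1c) and 0 higher in KO tumours, where 4.61% of all genes were lower. In brain they gave 0 members, where 8.52% of all genes differed in either direction. The tumour share counts only the direction in which these members went, so it is smaller than a share for either direction would be.

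Igf2 averaged 2.33 ± 2.82 FPKM in KO tumours (SD, n = 2) and 12.5 ± 4.56 FPKM in WT tumours (SD, n = 3), and all KO tumours lay below all WT tumours. The limma difference in tumour was -2.28 (SE 0.88, 95% interval -4.20 to -0.36, adjusted p = 1.0). In brain Igf2 averaged 17.1 ± 2.90 FPKM in KO and 14.7 ± 14.1 FPKM in WT (SD, n = 3 each), a limma difference of 0.67 (SE 0.78, adjusted p = 1.0) that was -0.12 without WT brain 2. The difference between the genotype effects was -2.95 by limma (SE 1.18, adjusted p = 0.9997). Over the 21 alternatives tried, the tumour difference of Igf2 ran between -3.27 and -1.29, with adjusted p between 0.214 and 1.0. Of 7 tested choroid plexus markers, 0 passed between KO and WT tumours by limma, with 2 at an unadjusted p under 0.05. The sum of the 8 listed markers was 1.22 and 2.19 FPKM in KO tumours and 6.95 to 92.6 FPKM in WT tumours, and Ttr, the defining marker, was at 0 in both KO tumours and at 19.7, 0 and 63.8 FPKM in WT tumours. In WT tumour 2, 7 of the 8 markers were at 0. The 10 fibroblast and meninges markers summed to 55.7 to 68.6 FPKM in KO tumours and 30.9 to 60.3 FPKM in WT tumours, ranges that overlap. Of the 9 tested, 0 passed between KO and WT tumours by limma, with 1 at an unadjusted p under 0.05. The part of choroid plexus or meningeal RNA in the Igf2 difference was not tested.

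For the other members the interval of the genotype difference was wide in both tissues. In tumour H19 differed by -0.50 (95% interval -2.10 to 1.11), Plagl1 by -0.74 (-2.59 to 1.10), Cdkn1c by -0.83 (-2.21 to 0.55), Rian by -1.12 (-2.96 to 0.72) and Meg3 by 0.68 (-0.95 to 2.32), the last being -0.34 after quantile normalization. Rian was at 0.37 with library weights and at 0.91 without WT tumours 2 and 3. In brain Meg3 differed by -0.13 (-1.59 to 1.33), Rian by -0.05 (-1.70 to 1.59) and Snrpn by -0.21 (-1.69 to 1.27), and their KO and WT libraries overlapped. H19 differed by 0.76 in brain (-0.68 to 2.19), and by -0.08 without KO brain 2. Mirg, at 0 in every tumour, allowed no comparison there. The standard errors were 0.52 to 1.09, and the intervals are not adjusted for the 15606 genes tested. A difference whose interval excludes 0 can therefore still fail to pass, as that of Adgrl4 did in tumour (-4.28 to -1.27).

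**Figure D3:**
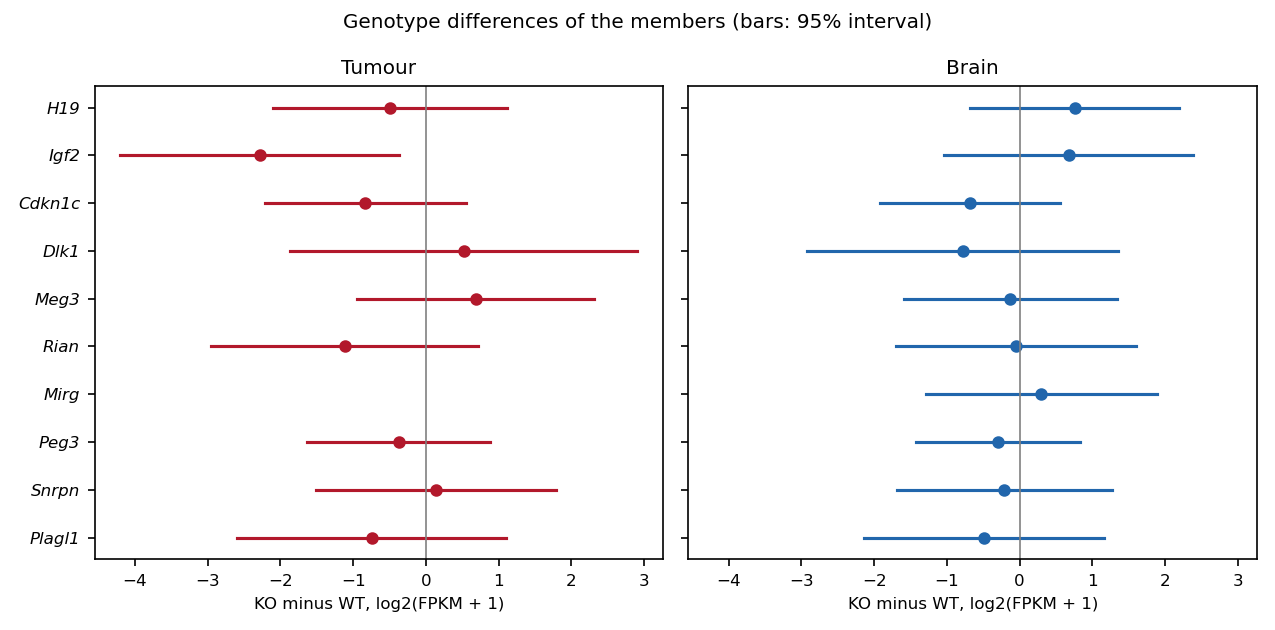
KO minus WT difference in log2(FPKM + 1) of each member in tumour (left) and brain (right), with the limma estimate as a point and its 95% interval as a bar (Mirg is left out in tumour, where it was 0 in all libraries). The Igf2 interval in tumour, -4.20 to -0.36, lies below 0 before adjustment, and every other interval spans 0.

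Other imprinted genes were tested between tumour and brain, from a list of 58, of which 56 had a row and 48 passed the filter. In WT mice 1 was higher in tumour and 16 were lower, together 35.4% of the 48, against 7.7% higher and 11.7% lower (19.4% in all) over all genes. Most of the 16, such as Nap1l5, Mest and Kcnk9, were at 0 in WT tumour 2, where a 0 may be a failed estimate. In KO mice 0 were higher and 2 were lower (Peg13 and Gnas), 4.17% against 4.8% higher and 2.29% lower (7.09% in all) over all genes. At an unadjusted p under 0.05, 14 of 48 differed in KO, against 24.6% of all genes. Among genes listed as expressed from the paternal allele 1 of 22 was higher and 10 lower in WT tumours. Among those listed for the maternal allele 0 of 24 was higher and 5 lower. Which allele was expressed in these tissues was not measured. In KO tumours 0 of 22 paternal genes were higher and 1 lower, and 0 of 24 maternal genes passed. The median difference was -0.67 in KO and -0.73 in WT, against -0.18 and -0.26 over all genes. The difference between the genotypes in this effect passed for 0 of 48 by limma, with 0 at an unadjusted p under 0.05.

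Sfmbt2, a Polycomb-related gene, was the one higher gene. It had 12.6 and 17.6 FPKM in KO tumours and 24.0, 10.5 and 16.7 FPKM in WT tumours, and 0.232 to 4.61 FPKM in KO brains and 0.285 to 0.863 FPKM in WT brains, with limma differences of 2.67 in KO (adjusted p = 0.0529) and 3.50 in WT (adjusted p = 0.00564). Peg13, a paternally expressed noncoding RNA of brain, averaged 11.2 ± 3.11 FPKM in KO tumours and 62.0 ± 14.5 FPKM in KO brains (adjusted p = 0.0106 by limma), and 12 ± 5.48 FPKM in WT tumours and 62.9 ± 12.7 FPKM in WT brains (adjusted p = 0.00346). Gnas, the locus of the stimulatory G protein alpha subunit, averaged 299 ± 59.8 FPKM in KO tumours and 750 ± 102 FPKM in KO brains (adjusted p = 0.0190 by limma), and 275 ± 37.6 FPKM in WT tumours and 714 ± 152 FPKM in WT brains (adjusted p = 0.00558). These means are over n = 2 KO tumours and n = 3 in every other group, with SD. Both fell in each genotype, and the KO calls of both were lost without either KO tumour, where 0 of the 48 passed. The KO call of Gnas was also lost without KO brain 2 or KO brain 3 and with no variance trend, and its WT call with only the groups compared. The KO count was 9 without WT tumour 2, 8 without WT tumour 3 and 1 without KO brain 2 or KO brain 3. The WT count of 17 was 8 without WT tumour 1, 9 without WT tumour 2, 10 without WT brain 1 and 9 without WT brain 2, and it was 2 when only the groups compared entered the fit.

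**Figure D4:**
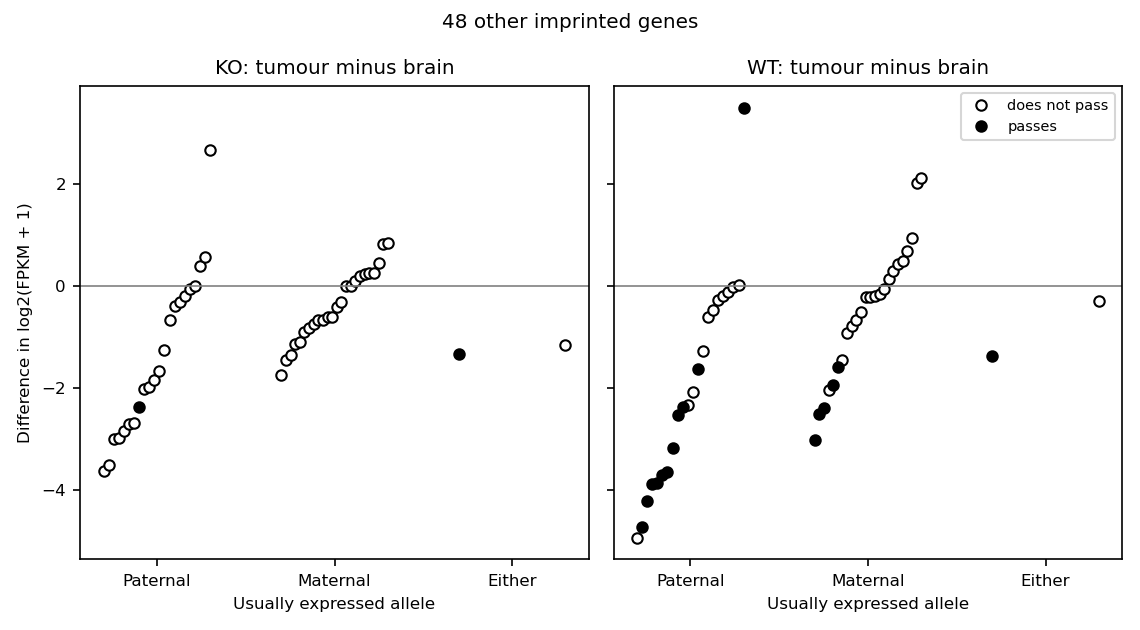
Tumour minus brain difference in log2(FPKM + 1) of the 48 other imprinted genes that passed the filter, in KO (left) and WT (right), grouped by the expressed allele listed for each gene, which was not measured here. Filled points pass an adjusted p of 0.05, 2 in KO and 17 in WT, of which 1 is above 0.

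Of 18 tested genes from a list of regulators of DNA methylation and chromatin, 5 were higher in KO tumours and 6 in WT tumours. None was lower, and 13 and 12 did not pass. Over all genes 4.8% were higher in KO and 7.7% in WT. The median of the 18 was 0.14 in KO and 0.60 in WT, against -0.18 and -0.26 over all genes. Uhrf1, which guides the maintenance methyltransferase to replicated DNA, averaged 44.4 ± 13.3 FPKM in KO tumours and 0.702 ± 0.755 FPKM in KO brains, and 64.8 ± 33.3 FPKM in WT tumours and 0.201 ± 0.262 FPKM in WT brains. Dnmt1, that methyltransferase, averaged 83.4 ± 33.2 FPKM in KO tumours and 12.1 ± 2.89 FPKM in KO brains, a call lost without KO tumour 2 (adjusted p = 0.0604 by limma), and 111 ± 13.2 FPKM in WT tumours and 13.9 ± 2.46 FPKM in WT brains. All 10 proliferation markers were higher in WT tumours and 9 of 10 in KO tumours, and their part in these values was not tested. Of 13 tested partners of Igf2 and H19 (receptors, RNA-binding proteins and target genes), 4 were higher and 0 lower in KO tumours, and 5 were higher and 2 lower in WT tumours. Over all genes 4.8% were higher and 2.29% lower in KO, and 7.7% higher and 11.7% lower in WT. The median of the 13 was 0.85 in KO and 0.29 in WT. The RNA-binding protein gene Igf2bp2 averaged 24.7 ± 11.0 FPKM in KO tumours and 0.723 ± 0.791 FPKM in KO brains, a call lost without either KO tumour and at pseudocount 0.1, and 48.5 ± 32.0 FPKM in WT tumours and 0.189 ± 0.327 FPKM in WT brains. Hmga2, a chromatin protein gene of embryonic cells, averaged 9.85 ± 0.424 FPKM in KO tumours and 8.72 ± 3.37 FPKM in WT tumours and was listed at 0 in all 6 brains, with its KO call lost without KO tumour 1. Igf1r, the receptor through which Igf2 signals, averaged 13 ± 5.13 FPKM in WT tumours and 41.0 ± 11.7 FPKM in WT brains, a fall by limma that was lost without WT brain 1, without WT tumours 2 and 3, and with only the groups compared.

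Patterns like those of H19 and Meg3 were looked for in deviations from the 4 group means over the 11 libraries, among 10889 genes with a mean of at least 5 FPKM, as a description. The highest Pearson r with H19 were those of Rnf183 (0.93), Zfp12 (0.93), Map4k1 (0.93), Spag5 (0.92) and Phf19 (0.91), and 3 of these, Rnf183, Map4k1 and Spag5, were above 0 among brains only in KO brain 2, the library with 5.55 FPKM of H19. The highest r with Meg3 were those of Nfx1 (0.99), Dgat1 (0.98), Btbd10 (0.95), Cyld (0.95) and Nacad (0.95). Nfx1 and Meg3 were both lowest in WT tumour 2 among WT tumours and in WT brain 3 among WT brains. The libraries are shared by both genes of each pair, and with this many genes high values of r arise over 11 points.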

How the data were processed

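RNA from 11 TRAP libraries in 4 groups (tissue by genotype) was analysed from tables in which the authors deposited FPKM values per gene. Reads were mapped with TopHat2 2.1.1 and quantified with Cufflinks 2.2.1 on GRCm38, per the submitters' processing notes, after rRNA depletion and a stranded kit, per the labels' protocols. No source used here names the annotation or the use of strand. Low FPKM values were not whole multiples of a common step (0.173% to 1.29% of low genes shared the most frequent ratio between libraries), so no count test was run and depth is unknown. Each table had 46073 entries, and 394 entries of 188 repeated symbols were summed, leaving 45867 genes. The second entries of Meg3, Rian and Dlk1 were 0 throughout.

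Tests used limma 3.58.1 in R 4.3.3 on log2(FPKM + 1) for 15606 genes with at least 1 FPKM in at least 2 libraries, with 4 group means over all 11 libraries (7 residual degrees of freedom), eBayes with trend and Benjamini-Hochberg adjustment over all genes, two-sided. The fit was tested on simulated data. The labels pair no replicates, and replicate numbers follow accession order. The members and all gene lists were chosen with earlier results of these data known. All members are described. From other lists, at most 4 genes per direction with the smallest p and a mean of at least 5 FPKM were eligible, and Rtl1, Snurf and Usp29 were added as neighbours of members after their values were seen. Gene positions and sequences are from RefSeq, GRCm38.p6. Alternatives covered the pseudocount, the filter, scaling, the variance trend, library weights, the groups in the fit and leaving out libraries.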

Additional observations from a re-analysis of the deposited data

How the results depend on the processing

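No paired analysis was possible because the labels give no replicate numbers shared between groups. Over 418 refits of member genotype differences no adjusted p passed, the lowest being 0.143 (Snrpn in tumour, without WT tumours 2 and 3). Each cause below was not tested beyond what the alternative itself changes. The genes of all 15606 that passed between KO and WT in tumour numbered 3, with 1 at a filter of 5 FPKM, 1 after quantile normalization, 62 with library weights, 0 with only the groups compared, 19 without WT tumours 2 and 3, and 0 (without KO tumour 2) to 29 (without WT tumour 2) on leaving out 1 library. In brain they numbered 1, with 0 at pseudocount 0.1, at a filter of 5 FPKM, with only the groups compared and without WT tumours 2 and 3, and 0 to 4 (without KO brain 3) on leaving out 1 library. For the difference of effects they numbered 1, with 0 after quantile normalization and with no variance trend, 4 with library weights, 9 without WT tumours 2 and 3, and 0 to 13 (without WT tumour 2) on leaving out 1 library. Other imprinted genes that passed between tumour and brain in WT numbered 17, with 11 at pseudocount 0.1, 2 with only the groups compared, and 8 (without WT tumour 1) to 19 (without WT tumour 3) on leaving out 1 library. In KO they numbered 2, with 5 after quantile normalization, 14 with library weights, 12 with only the groups compared, 13 without WT tumours 2 and 3, and 0 (without either KO tumour) to 9 (without WT tumour 2) on leaving out 1 library.

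Member genotype differences turned sign in 26 of the 418 refits. Many of the 418 could not move the estimate, such as leaving out a brain library for a difference in tumour. The count is therefore no measure of how stable the signs are. In tumour Meg3 was at -0.34 after quantile normalization. Rian was at 0.37 and Peg3 at 0.028 with library weights, and at 0.91 and 0.26 without WT tumours 2 and 3. In brain, library weights put Meg3 at 0.36, Rian at 0.19 and Mirg at -0.24, and Rian was at 0.042 with upper quartile scaling and 0.059 after quantile normalization. Leaving out 1 library gave, in tumour, -0.21 to 1.32 for Dlk1, -0.90 to 0.25 for Peg3 and -0.79 to 1.01 for Snrpn. In brain it gave -0.079 to 1.20 for H19, -0.12 to 1.41 for Igf2, -0.70 to 0.18 for Meg3, -0.37 to 0.31 for Rian, -0.34 to 1.08 for Mirg and -1.22 to 0.21 for Plagl1. Tumour minus brain kept its sign in all alternatives for the members other than Igf2 in WT, which ran from -0.58 to 0.95 on leaving out 1 library. The median of all genes between tumour and brain in WT was -0.26, and moved to -0.10 with upper quartile scaling and 0.01 after quantile normalization, so differences near this size rest on the scaling. The 2 KO tumours and the unknown depth limit what these libraries can show.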
